A study of Mus musculus with 20 samples.

Results

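Renal tubular epithelial cells grown from kidneys of Ptprz1 knockout (KO) mice were compared after 24 h with LPS at 100 ng/mL plus IFNγ at 10 ng/mL and without stimulation. The comparison used 8 of the 20 libraries of the series, namely LPS+IFNγ replicates 1, 2, 3 and 5 and control replicates 1, 2, 3 and 5 of the KO cells. These libraries were chosen by measured values: the KO pair numbered 4 was left out because its interferon targets run against its stimulation labels. The numbers of changed genes and their p-values therefore describe a chosen set of libraries, and the interferon genes are no independent evidence of a response. The other libraries are the KO pair 4 and 5 LPS+IFNγ and 5 control libraries of heterozygous (het) cells, which the study uses as its Ptprz1-expressing cells. All groups share the strain B6.129-Ptprz1tm1Nmo and a culture medium that holds 10% serum, growth factor, hormones, prostaglandin and an insulin, transferrin and selenite supplement. The cells are primary cultures, and the labels used here give no age. Animals 3, 6, 7 and 10 gave the LPS+IFNγ libraries and animals 3, 5, 6 and 10 the controls, and animals 5 and 7 are also listed under het. An animal has a single genotype, so these animal numbers are in doubt, and so are the values with the animal as a block that use them.

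LPS is a bacterial cell wall component that is sensed by Toll-like receptor 4, and it activates NF-kB, MAP kinases and interferon regulatory factors. IFNγ acts through its receptor and JAK kinases, and genes it induces often carry gamma-activated sites (GAS) or interferon-stimulated response elements (ISRE), which IRF proteins can bind. In macrophages the combined stimuli are known to change glucose, tryptophan and iron metabolism, and the description below covers such genes and the genes that fell.

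Total counts were 12899528 to 19142768 in the 8 libraries. Ptprz1, the receptor-type phosphatase gene that is targeted, had 0, 1, 0 and 0 counts with LPS+IFNγ and 0, 0, 1 and 0 counts in controls. It had 7 and 6 counts in the KO replicate 4 libraries labelled LPS+IFNγ and control, and 0 to 4 counts in het libraries, so these levels cannot check the genotype. A count of 0 allows up to 0.157 to 0.233 CPM (counts scaled to library size) in the 8 libraries, for counting error only. Of 16 tubular markers 12 passed the filter on low counts, and Slc34a1, Umod, Slc12a3 and Aqp2, which mark mature segments, did not. The tubular markers summed to 1853 to 2583 CPM with LPS+IFNγ and 2676 to 3939 CPM in controls, and none was called. The 18 leukocyte markers summed to 3.63 to 9.25 CPM with LPS+IFNγ and 12.3 to 19.9 CPM in controls, and 10 of the 18 passed the filter, with Cx3cr1, Mrc1, Cd3e and S100a8 among those that did not. The 12 fibroblast markers summed to 1001, 1209, 12642 and 1214 CPM with LPS+IFNγ and 1215, 2011, 1253 and 1378 CPM in controls, so LPS+IFNγ replicate 3 stands apart. Without that library 622 genes were called higher and 73 lower. Fewer cells of a type and less RNA per cell cannot be told apart in such bulk samples.

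Of 14630 genes tested, 704 (4.81%) rose and 139 (0.95%) fell with LPS+IFNγ, at an adjusted p under 0.05 in edgeR's quasi-likelihood test with Benjamini-Hochberg adjustment. That fit took its spread from 16 libraries, 8 of them het, and a fit of the 8 KO libraries alone called 1046 higher and 475 lower. With the animal as a block 1228 genes (8.39%) rose and 740 (5.06%) fell, and 684 of the 704 and 126 of the 139 were among them. Without animals 5 and 7 the block called 1011 higher and 661 lower. Calls in either direction covered 5.76% of the genes without the block and 13.5% with it. The counts given below for lists are to be read beside these shares over all genes. With all 20 libraries as labelled, edgeR called 0 of 14568 genes, 1307 genes had an unadjusted p under 0.05, and DESeq2 called 110 higher and 5 lower. Of the risers, 500 rose by at least 2-fold, 338 by at least 4-fold, 195 by at least 16-fold and 101 by at least 64-fold, and their median log2 fold change was 1.93. Of the fallers, 70 fell by at least 2-fold, 21 by at least 4-fold and 6 by at least 16-fold, and their median log2 fold change was −1.0. The median over all genes tested was −0.01. The risers held 11.7 to 16.3% of a library's counts with LPS+IFNγ and 2.84 to 3.13% in controls, and the fallers 0.646 to 0.692% with LPS+IFNγ and 1.18 to 1.35% in controls.

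**Figure D1:**
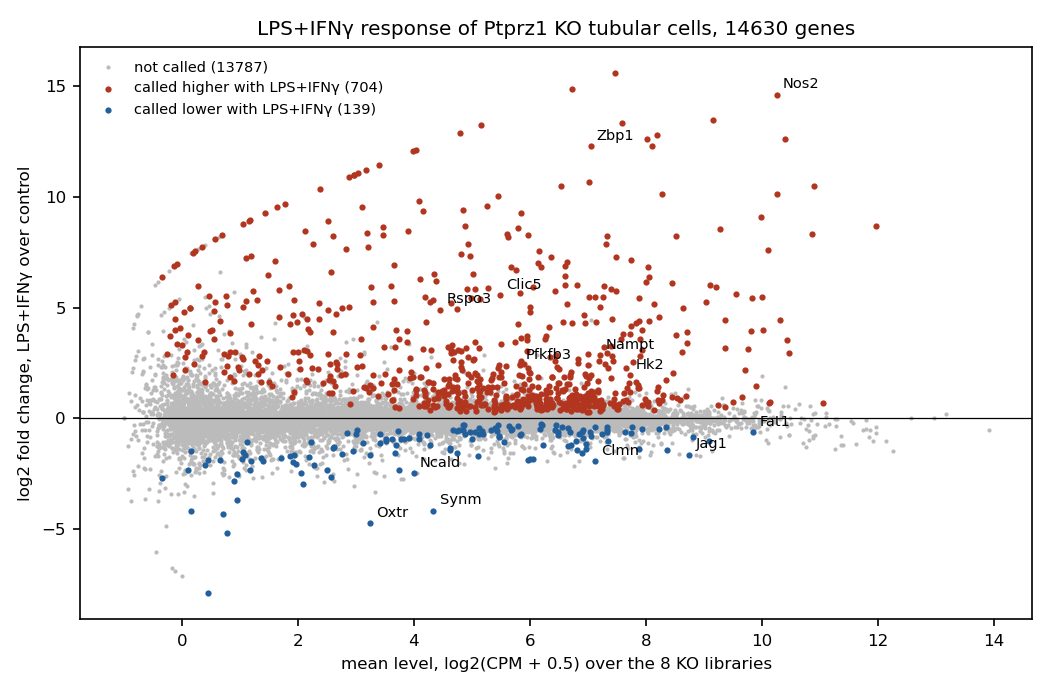
Log2 fold change (LPS+IFNγ over control, vertical) against mean level over the 8 KO libraries (log2(CPM + 0.5), horizontal) for 14630 genes, with called genes in colour. The 704 risers extend to larger fold changes than the 139 fallers.

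Sequence around the start of 4 responding genes is shown because short motifs of the GAS, ISRE and NF-kB kinds can lie there. The 4 were picked by hand as examples and do not stand for all responding genes. Every riser shown holds an ISRE match, against 29.2% of 277 promoters of genes that rose by at least 4-fold. The sequences are RefSeq promoters of build GRCm38.p6, from 250 bases before to 50 bases after the gene's start, 5′ to 3′ on the gene's strand. Capitals mark matches on either strand to GAS (TTCNNNGAA), ISRE (GAAA, any 2 bases, GAAA) and NF-kB (GGGA, any 4 bases, CC) letters. Gbp5, an interferon-induced GTPase, lies on the plus strand at chr3:142496684-142496983. Tgtp2, an immunity-related GTPase, lies on the minus strand at chr11:49064163-49064462. Trim21, a cytosolic antibody receptor and ubiquitin ligase, lies on the minus strand at chr7:102565433-102565732. Oxtr, the oxytocin receptor gene, lies on the minus strand at chr6:112489776-112490075.
Gbp5: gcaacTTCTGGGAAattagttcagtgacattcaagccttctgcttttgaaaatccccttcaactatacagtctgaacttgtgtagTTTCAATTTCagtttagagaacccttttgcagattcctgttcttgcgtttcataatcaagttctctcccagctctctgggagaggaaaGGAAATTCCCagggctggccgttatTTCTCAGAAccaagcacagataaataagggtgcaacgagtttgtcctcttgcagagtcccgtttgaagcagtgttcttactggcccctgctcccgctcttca
Tgtp2: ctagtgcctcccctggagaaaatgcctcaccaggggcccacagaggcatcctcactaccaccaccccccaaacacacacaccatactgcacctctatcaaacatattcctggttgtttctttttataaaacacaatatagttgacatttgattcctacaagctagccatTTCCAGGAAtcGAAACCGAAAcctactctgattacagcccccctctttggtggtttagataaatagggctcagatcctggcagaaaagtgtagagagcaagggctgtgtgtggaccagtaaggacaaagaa
Trim21: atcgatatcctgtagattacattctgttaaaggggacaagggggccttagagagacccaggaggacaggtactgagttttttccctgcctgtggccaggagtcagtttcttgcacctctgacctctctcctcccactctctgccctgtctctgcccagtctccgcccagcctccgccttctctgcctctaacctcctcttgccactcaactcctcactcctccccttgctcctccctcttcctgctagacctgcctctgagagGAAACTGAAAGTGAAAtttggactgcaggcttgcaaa
Oxtr: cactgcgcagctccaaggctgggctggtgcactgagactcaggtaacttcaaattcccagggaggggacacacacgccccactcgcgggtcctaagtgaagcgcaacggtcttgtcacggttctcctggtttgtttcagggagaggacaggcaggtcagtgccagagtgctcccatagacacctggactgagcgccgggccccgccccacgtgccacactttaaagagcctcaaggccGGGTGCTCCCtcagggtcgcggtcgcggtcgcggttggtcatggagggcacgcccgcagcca

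Gbp5 holds 2 GAS matches, the first beginning 245 bases before the start, an ISRE match 165 bases before it and an NF-kB match 77 bases before it. Tgtp2 holds a GAS match 81 bases and an ISRE match 70 bases before the start. Trim21 holds 2 overlapping ISRE matches, the first 13 bases after the start. Oxtr, which fell, holds an NF-kB match 12 bases before the start. Over all 13687 promoters of 10701 tested genes, ISRE letters occurred in 3.15%, GAS letters in 6.80% and NF-kB letters in 26.7%. Among 277 promoters of genes that rose by at least 4-fold, ISRE letters occurred in 29.2%, GAS letters in 14.4% and NF-kB letters in 30.0%. Among 390 promoters of genes that rose by less, the shares were 6.41% for ISRE, 7.95% for GAS and 24.9% for NF-kB. Among 137 promoters of genes that fell, they were 2.19% for ISRE, 2.19% for GAS and 24.1% for NF-kB. These matches are letters in a window and show no binding. The strongest risers include interferon genes, and genes of this kind chose the libraries. The shares of ISRE and GAS letters are therefore no independent evidence of a response.

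The interferon genes set the scale and are given as a description only, since genes of this kind chose the libraries. The 34 listed genes summed to 26496 to 43468 CPM with LPS+IFNγ and 346 to 527 CPM in controls. This list does not hold every interferon-induced gene. Others recur in the lists below, such as Zbp1, Eif2ak2 and Parp12, and their rises are no independent evidence either. Nos2, the inducible nitric oxide synthase, had 2330, 3511, 1236 and 2704 CPM with LPS+IFNγ and 0.117, 0.0543, 0 and 0.219 CPM in controls. Tgtp2 had 2236, 2435, 2567 and 2613 CPM with LPS+IFNγ and 2.93, 2.61, 1.29 and 2.12 CPM in controls. Neither gene's groups overlapped. Ciita, the activator of MHC class II genes, had 38.6, 37.7, 78.7 and 127 CPM with LPS+IFNγ and 0 counts over all controls. Trim21 averaged 113 ± 28.7 CPM with LPS+IFNγ and 9.92 ± 1.91 CPM in controls (SD, n = 4 each). Among the risers 55 had 3 counts or fewer over all 4 controls, and no fold is given for such genes.

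Genes of cell death included many risers: 14 of 34 tested rose and none fell, and the median log2 fold change was 0.60. Interferon-induced genes such as Zbp1 and Mlkl are among them, so this list is no independent evidence of a response. Zbp1, a sensor of Z-form nucleic acid that can trigger necroptosis, had 308, 275, 217 and 253 CPM with LPS+IFNγ and 3 counts over all controls. Tnfsf10, the death ligand TRAIL, had 56.8, 47.2, 64.7 and 58.0 CPM with LPS+IFNγ and 0, 0, 0 and 0.366 CPM in controls. All 4 stimulated libraries lay above every control for both genes. Mlkl, the effector of necroptosis, averaged 81.2 ± 12.3 CPM with LPS+IFNγ and 7.95 ± 2.72 CPM in controls (SD, n = 4 each). Gsdmd, which forms the pores of pyroptosis, averaged 26.0 ± 4.58 CPM with LPS+IFNγ and 2.40 ± 0.589 CPM in controls. Casp4, an intracellular LPS sensor, had a log2 fold change of 3.43 ± 0.30 (SE), and Ripk1, a kinase that directs cells towards survival or death, had one of 0.57 ± 0.08 (SE).

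Glycolysis genes had moderate risers. Of 23 tested, 6 rose and none fell, 22 had a positive fold change, and the median log2 fold change was 0.57. With the animal as a block 16 rose. Pfkfb3, which makes an activator of phosphofructokinase, had 90.6, 114, 85.0 and 88.8 CPM with LPS+IFNγ and 15.2, 19.5, 20.6 and 16.4 CPM in controls. Its groups did not overlap, and the log2 fold change was 2.42 ± 0.28 (SE; edgeR adjusted p = 4.4e-05). Hk2, the inducible hexokinase, had 412, 345, 327 and 254 CPM with LPS+IFNγ and 125, 109, 80.7 and 33.1 CPM in controls. Replicate 5 was lowest in both states, and the log2 fold change was 1.97 ± 0.37 (SE; edgeR adjusted p = 0.00357). Pfkp, a phosphofructokinase, and Pdk1, which restrains entry of pyruvate into mitochondria, rose by 1.27 and 1.38 on the log2 scale. Slc2a1, the glucose transporter GLUT1, rose by 1.1, a call lost without any 1 of 6 of the 8 libraries, with edgeR adjusted p up to 0.105. Pgk1, a glycolytic kinase, averaged 820 ± 123 CPM with LPS+IFNγ and 444 ± 136 CPM in controls (SD, n = 4 each), with an edgeR adjusted p of 0.0897, and of 0.00439 with the block.

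Several of these genes are known targets of the hypoxia-inducible factors. A list of 55 such genes was drawn up after the values were seen and is descriptive only. Of 53 tested, 13 rose and none fell, and 24 rose and 2 fell with the block. Without the block 24.5% of the list was called, against 5.76% of all genes. Bnip3, which directs mitochondria to autophagy, had 118, 154, 111 and 158 CPM with LPS+IFNγ and 36.6, 44.9, 47.7 and 51.0 CPM in controls. Egln3, a prolyl hydroxylase that acts on those factors, had 13.2, 14.6, 15.1 and 11.5 CPM with LPS+IFNγ and 3.05, 3.20, 2.52 and 1.97 CPM in controls. Neither gene's groups overlapped. Kdm3a, a histone demethylase, rose by 0.68 on the log2 scale (edgeR adjusted p = 0.00195). Acod1, which makes itaconate, had 23.9, 53.2, 20 and 25.9 CPM with LPS+IFNγ and 0 counts in controls. Of 32 genes of the citric acid cycle and pyruvate it rose and Acly, which turns citrate into acetyl-CoA in the cytosol, fell, which is 6.25% of the list and near the 5.76% of all genes, and 2 rose and 3 fell with the block. Acly had 443, 408, 365 and 219 CPM with LPS+IFNγ and 799, 804, 849 and 460 CPM in controls. Replicate 5 was lowest in both states, and the log2 fold change was −1.0 ± 0.27 (SE; edgeR adjusted p = 0.0424, up to 0.122 with a library left out).

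Tryptophan and NAD genes included 5 risers and no faller of 17 tested. Calls covered 29.4% of that list, against 5.76% of all genes. Interferon-induced genes such as Wars and Ido1 are among them, so this list is no independent evidence of a response. Wars, the tryptophanyl-tRNA synthetase, had 655, 636, 824 and 928 CPM with LPS+IFNγ and 79.8, 81.8, 69.7 and 62.7 CPM in controls. Nampt, the rate-limiting enzyme of NAD salvage, had 265, 246, 222 and 294 CPM with LPS+IFNγ and 37.4, 37.2, 30.0 and 40.6 CPM in controls. Nnmt, which methylates nicotinamide, averaged 28.1 ± 4.29 CPM with LPS+IFNγ and 9.06 ± 0.907 CPM in controls (SD, n = 4 each). No stimulated library overlapped a control in these 3 genes, and the log2 fold changes were 3.39 ± 0.25, 2.85 ± 0.24 and 1.65 ± 0.18 (SE). Ido1, the tryptophan-degrading dioxygenase, was at 2.17 to 4.08 CPM with LPS+IFNγ and 0 to 0.163 CPM in controls. Ido2, its paralogue, had 5.4, 6.11, 5.12 and 3.69 CPM with LPS+IFNγ and 2 counts over all controls. Of 24 aminoacyl-tRNA synthetases 3 rose, Wars among them, with Kars for lysine at 1.19 and Rars for arginine at 0.59 on the log2 scale. They are 12.5% of that list, against 4.81% of all genes called higher.

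Nucleotide metabolism had 6 risers and 1 faller of 32 tested. Calls covered 21.9% of that list, against 5.76% of all genes. Interferon-induced genes such as Samhd1 and Cmpk2 are among the risers, so this list is no independent evidence either. Samhd1, which degrades deoxynucleotides, had 642, 690, 620 and 824 CPM with LPS+IFNγ and 86.4, 90.7, 96.8 and 82.5 CPM in controls. Pnp, the purine nucleoside phosphorylase, had 230, 216, 167 and 220 CPM with LPS+IFNγ and 55.0, 60.2, 61.2 and 43.7 CPM in controls. The groups did not overlap for either gene. Xdh, which makes urate in purine breakdown, had 131, 97.9, 167 and 376 CPM with LPS+IFNγ and 7.75, 3.96, 2.58 and 7.60 CPM in controls, with replicate 5 highest among the stimulated libraries. Cmpk2, a mitochondrial nucleotide kinase, averaged 67.8 ± 39.2 CPM with LPS+IFNγ and 1.65 ± 0.533 CPM in controls (SD, n = 4 each). Impdh2, which commits purine synthesis to guanine nucleotides, fell by 0.52 on the log2 scale (edgeR adjusted p = 0.0282), and its call was lost without any 1 of 7 of the 8 libraries.

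Redox and iron genes had 5 risers and no faller of 33 tested, and 16 risers and 1 faller with the block. Prdx1, an abundant peroxidase, had 1266, 1535, 1216 and 1562 CPM with LPS+IFNγ and 521, 613, 514 and 406 CPM in controls. Slc11a2, the iron importer DMT1, had 148, 184, 172 and 278 CPM with LPS+IFNγ and 59.6, 52.4, 52.3 and 46.8 CPM in controls. The groups lay apart for both, with log2 fold changes of 1.46 ± 0.28 and 1.91 ± 0.22 (SE). Steap4, a metalloreductase, had 23.2, 7.77, 15.4 and 15.5 CPM with LPS+IFNγ and 0 counts in controls. Sod2, the mitochondrial superoxide dismutase, averaged 132 ± 41.5 CPM with LPS+IFNγ and 54.2 ± 5.14 CPM in controls (SD, n = 4 each; edgeR adjusted p = 0.0108).

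Of 27 genes of the integrated stress response, in which kinases of the initiation factor eIF2 slow translation, 5 rose and none fell. Eif2ak2, the kinase PKR, had 177, 172, 136 and 189 CPM with LPS+IFNγ and 48.0, 40.0, 36.5 and 34.9 CPM in controls. Ddit3, the transcription factor CHOP, had 50.1, 92.1, 65.4 and 146 CPM with LPS+IFNγ and 18.5, 27.0, 25.4 and 20.9 CPM in controls. Neither overlapped between groups, and Ddit3 varied widely within the stimulated libraries. The endoplasmic reticulum folding list had 0 calls of 22 tested with and without the block.

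Protein breakdown had 13 risers and no faller among 34 ubiquitin and autophagy genes, or 11 of 32 without Isg15 and Usp18, which the interferon list also holds. Interferon-induced genes outside that list, such as Ubd, are among the 11. Herc6, the mouse ligase for the ubiquitin-like protein ISG15, had 329, 355, 215 and 402 CPM with LPS+IFNγ and 16.5, 14.9, 14.9 and 12.9 CPM in controls. Rnf213, a very large ubiquitin ligase, had 1343, 1270, 942 and 1498 CPM with LPS+IFNγ and 72.4, 60.6, 48.5 and 56.5 CPM in controls. Stimulated replicate 3 was lowest among the stimulated libraries in both genes and above every control. Sqstm1, an autophagy receptor, averaged 1396 ± 324 CPM with LPS+IFNγ and 859 ± 31.1 CPM in controls (SD, n = 4 each), and its call was lost without any 1 of 5 libraries. Of 48 proteasome genes 13 rose and none fell, and 45 fold changes were positive. Psmb8, Psmb9 and Psmb10 are also in the interferon list, and without them 10 of 45 rose and 42 fold changes were positive. These 10 include Psme1, Psme2 and Psme2b, with log2 fold changes of 2.45, 2.57 and 2.86. They are interferon-induced genes that the interferon list does not hold, so the 10 are not free of such genes. Constitutive subunits were among the risers, such as Psma5 with a log2 fold change of 0.97 ± 0.12 and Psma6 with 0.56 ± 0.10 (SE). Of 12 PARP genes, which attach ADP-ribose to proteins, 8 rose, and Parp10 and Parp12 had log2 fold changes of 2.61 ± 0.13 and 3.22 ± 0.17 (SE). Of 29 lysosome genes 3 rose, namely Npc2, a cholesterol carrier, Lamp2, a membrane protein, and Ctsc, a protease. They are 10.3% of that list, against 4.81% of all genes called higher. Npc2 averaged 486 ± 76.7 CPM with LPS+IFNγ and 280 ± 17.4 CPM in controls (SD, n = 4 each; edgeR adjusted p = 0.0102), and its adjusted p with the block was 0.0600. The call of Ctsc was lost without any 1 of 5 of the 8 libraries, with edgeR adjusted p up to 0.0772.

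**Figure D2:**
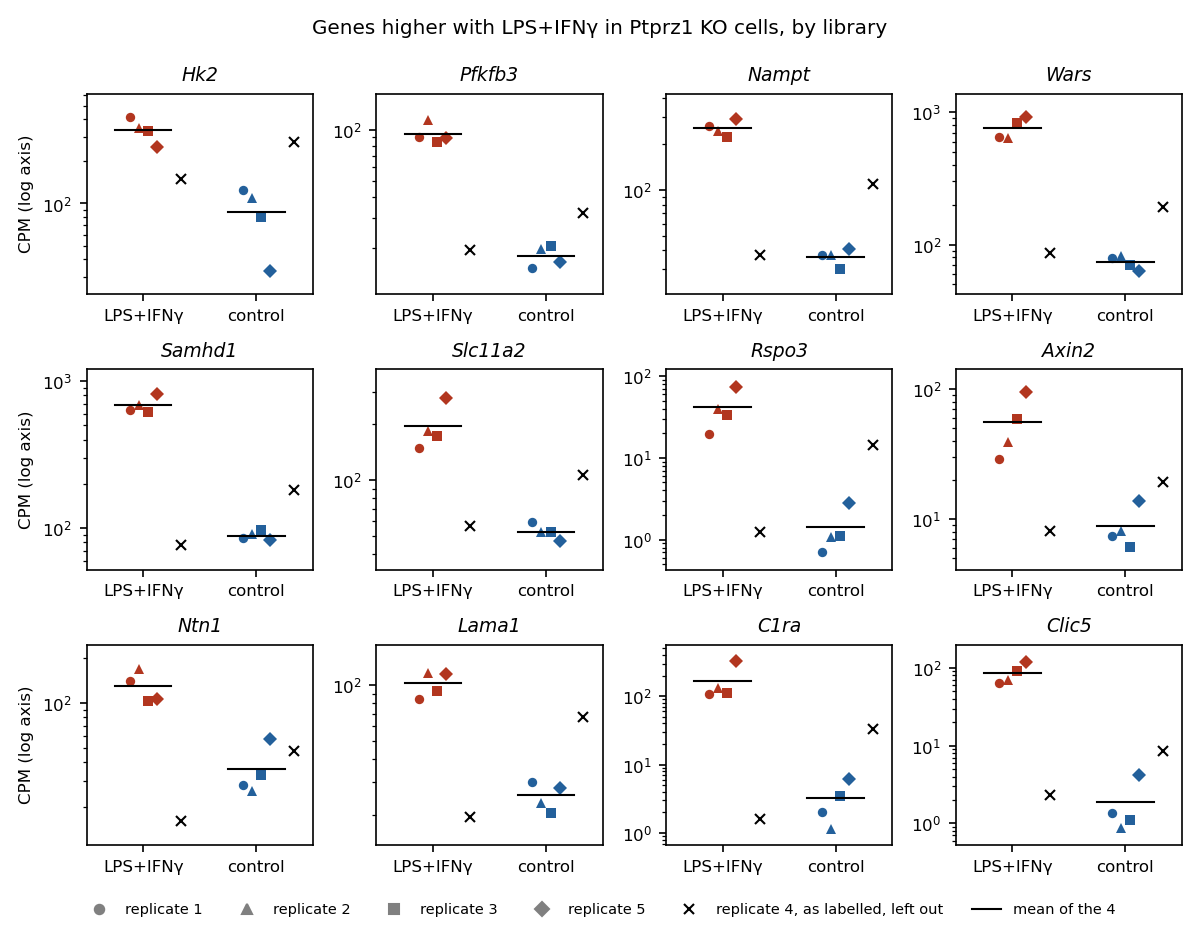
CPM (log axes) of 12 risers in each KO library, LPS+IFNγ left and control right; symbols mark replicates, and crosses the replicate 4 pair under its labels. The 4 stimulated libraries lie above every control in each panel, and the crosses run the other way.

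Of 25 complement and coagulation genes 8 rose and none fell. C1ra, a protease of the classical complement pathway, had 107, 130, 111 and 327 CPM with LPS+IFNγ and 2.00, 1.14, 3.45 and 6.21 CPM in controls. Replicate 5 was highest in both states and the groups did not overlap. Of 20 acute phase and antiprotease genes 7 rose, and Lbp, which hands LPS to its receptor, averaged 285 ± 101 CPM with LPS+IFNγ and 8.86 ± 9.50 CPM in controls (SD, n = 4 each). Serpinb9, an inhibitor of granzyme B, averaged 419 ± 110 CPM with LPS+IFNγ and 60.5 ± 12.9 CPM in controls.

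Of 43 genes of the Wnt, Notch and Hedgehog pathways, 5 rose and 1 fell, and 9 rose and 9 fell with the block. Rspo3, a secreted enhancer of Wnt signalling, had 19.4, 39.5, 33.2 and 73.7 CPM with LPS+IFNγ and 0.704, 1.09, 1.11 and 2.78 CPM in controls. Axin2, a feedback inhibitor of that pathway, had 29.0, 39.1, 58.9 and 95.0 CPM with LPS+IFNγ and 7.45, 8.09, 6.09 and 13.7 CPM in controls. Replicate 5 was highest in both states for both genes, and the groups did not overlap. Their log2 fold changes were 4.91 ± 0.75 and 2.68 ± 0.53 (SE; edgeR adjusted p = 0.000627 and 0.00553). Notum, a secreted Wnt-inactivating enzyme, had 1.21, 3.32, 4.84 and 26.9 CPM with LPS+IFNγ and 0.176, 0.0543, 0.176 and 0.585 CPM in controls, with replicate 5 far above the other stimulated libraries. Jag1, a Notch ligand, had 318, 209, 170 and 128 CPM with LPS+IFNγ and 776, 745, 651 and 425 CPM in controls. It fell in all 4 stimulated libraries, with a log2 fold change of −1.63 ± 0.39 (SE; edgeR adjusted p = 0.0215, 0.000127 with the block), and the call was lost without any 1 of 6 of the 8 libraries.

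Ntn1, the guidance protein netrin-1, had 141, 169, 103 and 106 CPM with LPS+IFNγ and 28.1, 25.5, 33 and 57.5 CPM in controls. Lama1, a basement membrane laminin chain, had 84.1, 116, 92.6 and 115 CPM with LPS+IFNγ and 30.1, 23.3, 20.5 and 27.8 CPM in controls. The groups did not overlap for either gene. Lama4, another laminin chain, had 14.5, 14.1, 48.2 and 16.2 CPM with LPS+IFNγ and 1.88, 0.543, 1.23 and 2.27 CPM in controls, and its highest value was in replicate 3, the library with the high fibroblast markers. Its call was lost without that library, and also without control replicate 1, 2 or 3, with edgeR adjusted p up to 0.0750. Clic5, a chloride channel protein that also marks podocytes, had 64.6, 70.6, 90.7 and 119 CPM with LPS+IFNγ and 1.35, 0.869, 1.11 and 4.17 CPM in controls. The other tested podocyte markers were not called, and the podocyte list summed to 260 to 391 CPM with LPS+IFNγ and 388 to 585 CPM in controls. Slc6a19, the neutral amino acid transporter of the proximal tubule, had 7.0, 11.2, 5.56 and 6.74 CPM with LPS+IFNγ and 0.763, 0.271, 0.234 and 0.585 CPM in controls. It was the 1 gene called among 13 proximal tubule genes tested, which is 7.69% and near the 5.76% of all genes. The median log2 fold change of the 13 was −0.07. The proximal tubule list summed to 102 to 214 CPM with LPS+IFNγ and 122 to 271 CPM in controls. Cyp7b1, an oxysterol hydroxylase, averaged 26.6 ± 10.8 CPM with LPS+IFNγ and 1.76 ± 1.21 CPM in controls (SD, n = 4 each).

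The fallers spanned low and high levels, with control means above 100 CPM in 40 and under 10 CPM in 39. In 135 of the 139 the 4 stimulated libraries all lay below the 4 controls, as in 8.0% of all genes tested, and in 696 of the 704 risers they all lay above, as in 9.92% of all genes. Ncald, a neuronal calcium sensor, had 6.2, 4.39, 3.30 and 4.69 CPM with LPS+IFNγ and 26.6, 25.2, 23.8 and 29.8 CPM in controls. Clmn, an actin-binding membrane protein, had 81.1, 54.7, 54.3 and 38.9 CPM with LPS+IFNγ and 211, 222, 214 and 240 CPM in controls. Fgf18, a fibroblast growth factor, had 1.49, 2.08, 0.991 and 2.23 CPM with LPS+IFNγ and 8.80, 9.07, 8.90 and 7.60 CPM in controls. The controls of these 3 genes varied little, and the log2 fold changes were −2.48 ± 0.30, −1.93 ± 0.28 and −2.31 ± 0.33 (SE; edgeR adjusted p = 6.1e-05, 0.000396 and 0.000304).

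Oxtr had 0.172, 0.415, 0.495 and 1.46 CPM with LPS+IFNγ and 2.00, 4.72, 29.6 and 33.3 CPM in controls. The controls differed widely among themselves, the groups did not overlap, and the log2 fold change was −4.73 ± 1.04 (SE; edgeR adjusted p = 0.0124). Synm, the intermediate filament protein synemin, had 1.38, 3.38, 0.991 and 2.40 CPM with LPS+IFNγ and 12.3, 11.7, 21.8 and 104 CPM in controls, with replicate 5 far above the other controls. Mycn, a growth-promoting transcription factor, had 1.15, 1.25, 1.49 and 1.41 CPM with LPS+IFNγ and 4.11, 5.37, 6.91 and 5.78 CPM in controls. Its groups did not overlap (edgeR adjusted p = 0.0101). Ckb, the cytosolic creatine kinase, Kcnk5, an acid-sensitive potassium channel, Greb1, a hormone-responsive gene, and Csdc2, an RNA-binding protein, fell by 1.82, 1.84, 2.12 and 1.88 on the log2 scale. Their calls were lost without any 1 of 5, 8, 3 and 4 of the 8 libraries, in the same order.

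**Figure D3:**
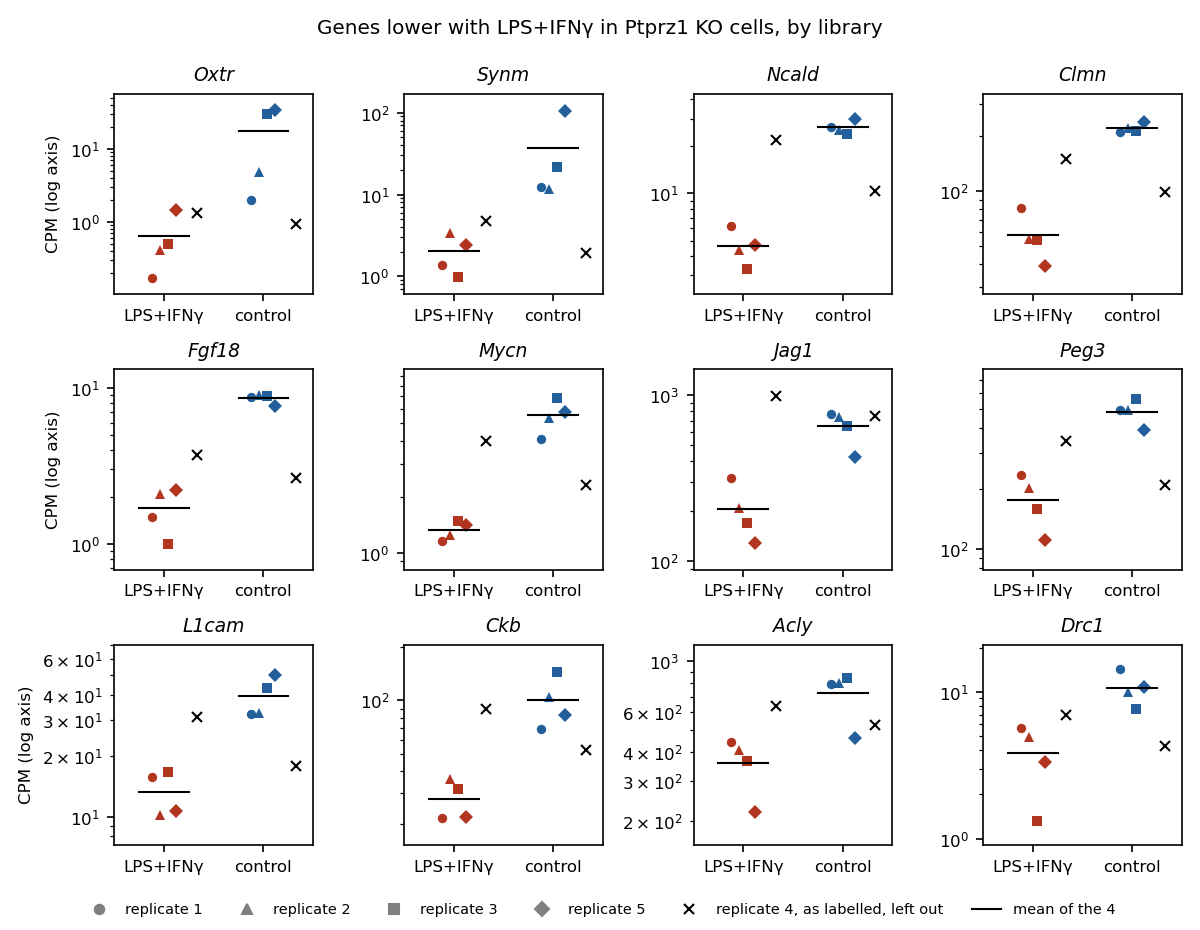
CPM (log axes) of 12 fallers in each KO library, LPS+IFNγ left and control right; symbols mark replicates, and crosses the replicate 4 pair under its labels. The 4 stimulated libraries lie below every control in each panel, and the crosses run the other way.

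Of 25 imprinted genes 2 fell and none rose, the neighbouring zinc finger genes Peg3 and Zim1. The 2 calls are 8.0% of the list, against 5.76% of all genes called in either direction and 0.95% called lower. Peg3, expressed from the paternal copy, had 234, 202, 158 and 111 CPM with LPS+IFNγ and 496, 492, 560 and 392 CPM in controls. Zim1, expressed from the maternal copy, had 1.72, 2.13, 1.49 and 0.645 CPM with LPS+IFNγ and 10.8, 7.38, 10.5 and 9.14 CPM in controls. Neither overlapped between groups, and the log2 fold changes were −1.44 ± 0.34 and −2.63 ± 0.44 (SE; edgeR adjusted p = 0.0195 and 0.00153). The call of Peg3 was lost without any 1 of 3 of the 8 libraries, with an adjusted p of up to 0.0683.

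Of 39 genes of neural guidance and synapses, 2 rose and 6 fell, and 2 rose and 12 fell with the block. L1cam, a cell adhesion molecule, had 15.7, 10.2, 16.7 and 10.7 CPM with LPS+IFNγ and 32.0, 32.7, 43.0 and 50.1 CPM in controls. The groups did not overlap, and the log2 fold change was −1.54 ± 0.30 (SE; edgeR adjusted p = 0.00571). Epha4, an ephrin receptor, averaged 13.7 ± 4.30 CPM with LPS+IFNγ and 34.7 ± 10.5 CPM in controls (SD, n = 4 each). Plxna2, a semaphorin receptor, overlapped between the groups, at 28.2 to 34.8 CPM with LPS+IFNγ and 34.7 to 70.1 CPM in controls. The call of Epha4 was lost without any 1 of 5 of the 8 libraries and that of Plxna2 without any 1 of 4, with edgeR adjusted p up to 0.0762 and 0.0811.

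The cilium list had 2 fallers and no riser of 45 tested, and 42 fold changes were negative, with a median of −0.21 on the log2 scale. The 2 calls are 4.44% of the list, below the 5.76% of all genes called in either direction, while 0.95% of all genes were called lower. A list of 92 genes of motile cilia was drawn up after the values were seen and is descriptive only. Of its 57 tested genes 9 fell and none rose, and 52 fold changes were negative. The calls are 15.8% of that list, against 5.76% of all genes called in either direction and 0.95% called lower. Drc1, a regulator of the ciliary dynein motors, had 5.63, 4.92, 1.32 and 3.34 CPM with LPS+IFNγ and 14.3, 9.99, 7.61 and 10.7 CPM in controls. Iqcg, of the same complex, averaged 7.49 ± 1.34 CPM with LPS+IFNγ and 17.5 ± 6.03 CPM in controls (SD, n = 4 each). The groups of both genes lay apart. Foxj1, the transcription factor of motile cilia, had 47.4, 20.3, 15.2 and 16.9 CPM with LPS+IFNγ and 94.0, 64.7, 56.4 and 85.7 CPM in controls, with an edgeR adjusted p of 0.0838, and of 0.0195 with the block. In het cells the 9 fallers had log2 fold changes between −1.20 in Cfap44 and 0.35 in Maats1, none of them called there, and the difference between the responses was not called for any of them. Cfap126 and Kif27 were called whichever library was left out, and the other 7 were lost without any 1 of 2 to 8 libraries. The adjusted p of Cfap126 with the block was 0.0523.

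Of 44 tested genes of cell polarity, a list also drawn up after the values were seen, 5 fell and none rose. The calls are 11.4% of the list, against 5.76% of all genes called in either direction and 0.95% called lower. Fat1, a giant cadherin, had 655, 725, 740 and 767 CPM with LPS+IFNγ and 1035, 1158, 1182 and 1139 CPM in controls. The groups did not overlap, and the log2 fold change was −0.62 ± 0.15 (SE; edgeR adjusted p = 0.0263, up to 0.0851 with a library left out). Lrp6, a Wnt coreceptor, had 104, 123, 132 and 146 CPM with LPS+IFNγ and 163, 182, 198 and 236 CPM in controls, and its call was lost without either of 2 libraries.

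Contractile and matrix genes depended on the model. Of 26 contractile and actin genes 1 fell, Synm, and none rose, while 13 fell with the block, and all 26 fold changes were negative with a median of −0.70. Of 41 matrix and TGF-beta genes 0 were called without the block, and with it 1 rose and 13 fell. Smtn, an actin-binding smooth muscle protein, had 395, 379, 265 and 141 CPM with LPS+IFNγ and 868, 960, 1002 and 495 CPM in controls. Its edgeR adjusted p was 0.167, and 0.00104 with the block. Tagln, an actin-binding protein of smooth muscle and fibroblasts, overlapped between groups, at 1121 to 2590 CPM with LPS+IFNγ and 2221 to 5726 CPM in controls. The 11 smooth muscle and mesangial markers summed to 1858 to 3699 CPM with LPS+IFNγ and 3369 to 7775 CPM in controls, with 0 of 8 tested called and 5 lower with the block. Their part in the contractile genes was not tested.

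Among cholesterol and sterol genes 3 rose and 2 fell of 33 tested, and 4 rose and 9 fell with the block. Without the block 15.2% of the list was called, against 5.76% of all genes. With the block 8.39% of all genes were called higher and 5.06% lower. Ch25h, which makes an oxysterol, was low, at 1.09 to 1.76 CPM with LPS+IFNγ and 0.0585 to 0.512 CPM in controls. Pmvk, an enzyme of the mevalonate pathway, had 6.49, 5.99, 5.56 and 4.69 CPM with LPS+IFNγ and 9.80, 8.74, 11 and 7.82 CPM in controls. Its groups did not overlap (edgeR adjusted p = 0.0452, up to 0.152 with a library left out). In a separate list of lipid mediator genes 1 rose and 1 fell of 19 tested, which is 10.5%, against 5.76% of all genes. Ptgs1, the constitutive prostaglandin synthase, averaged 21.6 ± 5.71 CPM with LPS+IFNγ and 41.2 ± 11.8 CPM in controls (SD, n = 4 each). The call of Ptgs1 was lost without any 1 of 4 of the 8 libraries and that of Ch25h without any 1 of 6, with edgeR adjusted p up to 0.105 and 0.119.

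**Figure D4:**
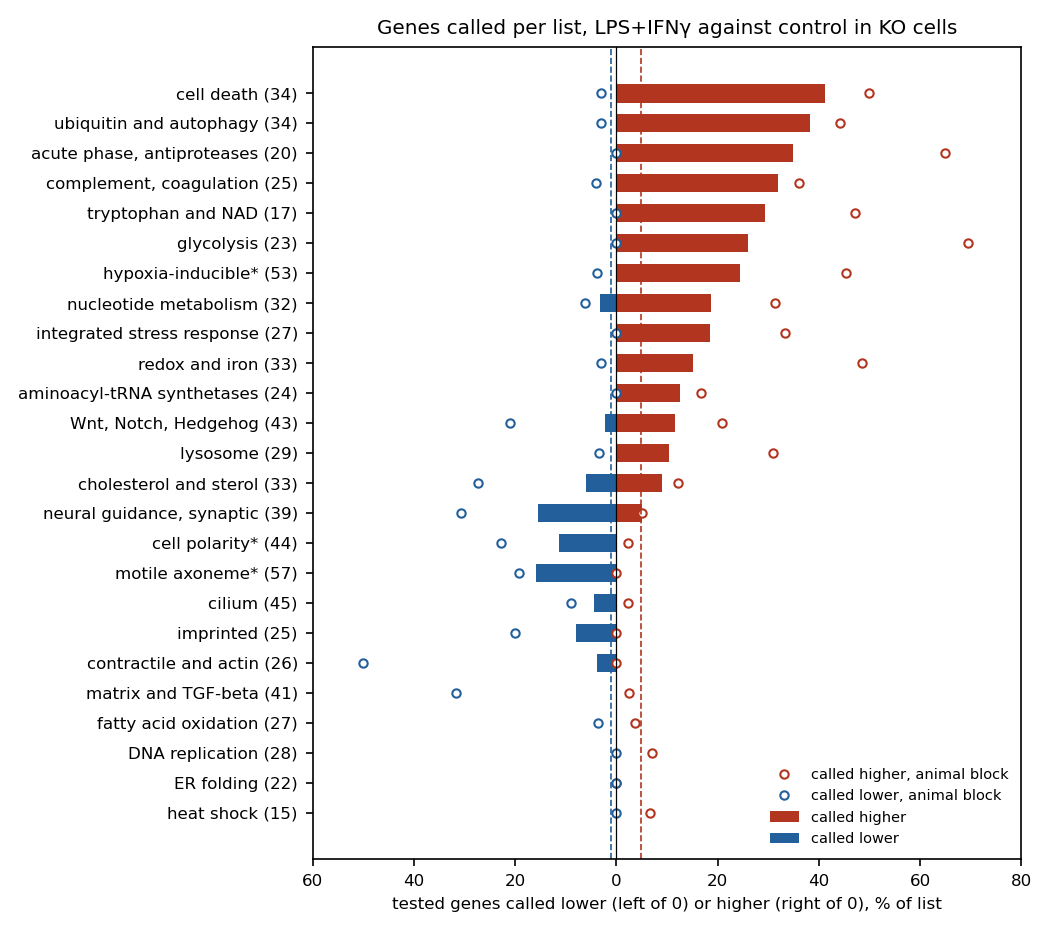
Share of tested genes called higher (right of 0) or lower (left of 0) with LPS+IFNγ in each list, with the number tested in parentheses; circles give the share with the animal as a block, dashed lines the 4.81% and 0.95% of all genes, and * marks lists drawn up after the values were seen. Of the cell death genes 41.2% were called, and contractile genes are called lower mainly with the block.

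Other broad classes had few or no calls. The 78 cytosolic ribosomal protein genes had 0 calls with and without the block. The 27 fatty acid oxidation genes had 0 calls, and 1 higher and 1 lower with the block. The 28 DNA replication genes had 0 calls and 2 higher with the block, and 27 fold changes were positive. They summed to 854, 789, 686 and 467 CPM with LPS+IFNγ and 534 to 596 CPM in controls, so stimulated replicate 5 lay below every control. The 25 histone genes had 0 calls, and 24 fold changes were negative. The 34 epithelial junction genes had 0 calls, and 5 higher and 5 lower with the block. Of 232 solute carrier genes 12 rose and 2 fell, which is 6.03% of them, near the 5.76% of all genes tested.

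Het replicates 1 to 4 gave the same measure in libraries that the rule for KO cells did not use. They too were kept by interferon values, since the het replicate 5 pair was left out for them, and animals 5 and 7 supply libraries to both genotypes as labelled, so the het values are no independent check. Of the 704 KO risers, 701 had a positive fold change in het cells and 576 (81.8%) were called higher there, against 5.67% of all genes. Of the 139 KO fallers, 137 had a negative fold change in het cells and 65 (46.8%) were called lower there, against 1.48% of all genes. Calls in either direction in het cells covered 7.15% of the genes, and no gene was called in opposite directions. The difference between the KO and the het response was called for 0 of 14630 genes (0.0%) by edgeR, and for 0 by DESeq2 and limma-voom, with 224 genes at an unadjusted p under 0.05 in edgeR. A response particular to KO cells was thus not shown for any gene, and a p that misses the threshold does not show that the responses are alike.

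**Figure D5:**
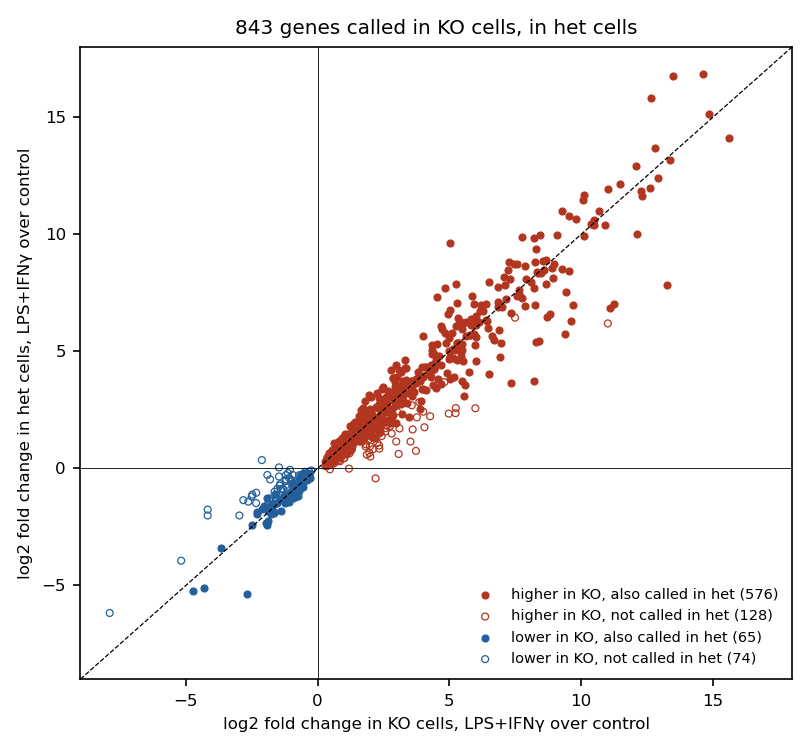
Log2 fold change (LPS+IFNγ over control) in het cells (vertical) against KO cells (horizontal) for the 843 genes called in KO cells, with filled symbols for genes also called in het cells. Of these, 576 risers and 65 fallers are filled.

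The KO replicate 4 pair showed the called genes in the opposite arrangement under its labels. The pair was left out because its interferon targets run that way, and the risers include such genes. The riser values of this pair are therefore partly set by that choice and are a description only. Of the 704 risers 15 were higher in the library labelled LPS+IFNγ than in the library labelled control, with a median log2 ratio of −0.75. Of the 139 fallers 137 were higher in the library labelled LPS+IFNγ, with a median log2 ratio of 0.38. Over all 14630 genes 7335 were higher there. The risers held 3.01% of counts in the library labelled LPS+IFNγ and 6.91% in the library labelled control. Ncald had 21.8 CPM in the library labelled LPS+IFNγ and 10.3 CPM in the library labelled control.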

How the data were processed

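RNA of cultured tubular epithelial cells was sequenced from directional libraries, per the labels. The deposited table holds the authors' estimated counts for 55891 gene IDs, stored as whole numbers. The submitters' processing notes name Salmon 1.10.2, FastQC 0.11.9, R 4.4.1, DESeq2 1.45.3 and the build GRCm39, without saying what each did. Symbols came from GENCODE M21 for 92.0% of IDs, which hold 98.8% of counts. Members of the Gbp, Tgtp, Serpina3 and H2-Q families may share reads, so their values are uncertain.

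Counts were tested with edgeR 4.0.16 in R 4.3.3 (TMM scaling, filterByExpr, robust quasi-likelihood fit) in 16 libraries with 4 group means and no block. The het replicate 5 pair was left out because its interferon genes summed to 325 CPM under the label LPS+IFNγ and 5428 CPM under the label control. The threshold was an adjusted p (Benjamini-Hochberg) of 0.05. SE is the absolute log2 fold change over the square root of F, and CPM are TMM-scaled. The fit was tested on simulated data, where 2-fold falls were recovered less often than 2-fold rises, and the requirement for passing was replaced after that was seen.

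Libraries of the same animal (3, 6 and 10) had deviations from their group means that correlated at 0.638, 0.542 and 0.602, against −0.526 to 0.436 between animals, so the block used the animal. Nothing says that cultures were independent beyond the animal, so p-values measure only the spread between the 16 libraries fitted, 8 of them het, and the animal numbers 5 and 7 appear under both genotypes. Alternatives used DESeq2 1.42.0, limma 3.58.1 (voom), other filters, libraries and blocks, and each of the 8 libraries left out. The members, lists and naming rule were chosen with earlier results of these data known, and 3 lists after the values were seen. The rule took, of called genes averaging 1 or more in log2 CPM, the 15 highest and 15 lowest fold changes, up to 4 genes of each list and 2 of each family by lowest p, and the 5 lowest p of the response difference. A further 43 genes followed in the sensitivity checks fall outside it, and those named here were chosen after their values were seen.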

Additional observations from a re-analysis of the deposited data

Results flagged for a closer look

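In 30 of 394 groups of 4 KO libraries that were checked, the highest or lowest library stood apart from the other 3 by more than Dixon's critical value. Chance alone gives that in about 1 of 20 groups of normally distributed values, which counts near 0 are not. All values are CPM, summed over members for lists. LPS+IFNγ replicate 1 was highest of its group, at 6.31 for Scube3, 1.84 for Spag6l and 47.4 for Foxj1. LPS+IFNγ replicate 3 was highest of its group, at 48.2 for Lama4 and 5.50 for Myh11. LPS+IFNγ replicate 3 was lowest of its group, at 118 for Cxcl9 and 63.0 for Mlkl. LPS+IFNγ replicate 5 was highest of its group, at 327 for C1ra, 434 for Lbp, 26.9 for Notum and 2.46 for Ankrd35. Control replicate 1 was highest of its group, at 0.117 for Gbp5, 0.117 for Ubd and 0.117 for Ido2. Each of these 3 flags rests on 2 counts over the 4 controls, and the Gbp10 flag below on 6 counts. Control replicate 1 was lowest of its group, at 14.9 for Pdk1. Control replicate 5 was highest of its group, at 0.439 for Gbp10, 0.366 for Tnfsf10, 4.17 for Clic5, 0.512 for Ch25h, 104 for Synm, 10.0 for Ankrd35 and 431 for Mylk. Control replicate 5 was lowest of its group, at 460 for Acly. LPS+IFNγ replicate 1 was highest among list sums, at 5397 for epithelial junctions. LPS+IFNγ replicate 1 was lowest among list sums, at 3947 for matrix proteases. LPS+IFNγ replicate 3 was highest among list sums, at 12642 for fibroblast markers. LPS+IFNγ replicate 3 was lowest among list sums, at 1292 for cilium and 430 for motile axoneme. LPS+IFNγ replicate 5 was highest among list sums, at 5085 for acute phase and antiproteases. LPS+IFNγ replicate 5 was lowest among list sums, at 6628 for endoplasmic reticulum folding. Outside the libraries compared, the interferon list summed to 9682 CPM in KO replicate 4 labelled control, above the 346 to 527 CPM of the other KO controls.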

How the results depend on the processing

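Against 704 genes higher and 139 lower, 641 of them called the same way in het cells and 0 differing between genotypes, edgeR without a filter on low counts called 87 lower, DESeq2 372 and the 8 KO libraries alone 475. The count in het covers only genes called in KO cells, so it must be 0 where no such gene is called. With 20 libraries as labelled, edgeR and limma-voom each called 0 higher and 0 lower, and so 0 in het. DESeq2 on these called 110 higher, 5 lower, 81 in het and 1 differing. Without animals 5 and 7, 432 were higher, 30 lower and 409 in het. The replicate block by animal gave 1228 higher, 740 lower and 1461 in het, and by replicate number within genotype 1210, 648 and 1316. As a random effect in limma-voom it gave 1295, 762 and 1456, and without animals 5 and 7 the block gave 661 lower and 1332 in het. The alternatives added after seeing the data are DESeq2 and limma-voom on the 20 libraries. Leaving out each library in turn gave 516 (without control replicate 3) to 639 higher and 64 (without LPS+IFNγ replicate 5) to 92 lower, so any of the 8 libraries moves the lower count by over 1.5 times. Of the genes followed, 75 of 97 risers and 11 of 45 fallers were called in all 8 of these fits. No gene followed changed direction under any alternative. The cause of these changes was not tested, other than that fewer libraries enter some fits. Depth limits genes near 3 counts per library.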
